A study of Homo sapiens with 6 samples.

Results

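Neprilysin and its relatives are zinc peptidases, enzymes that cut peptides with the help of a zinc ion held in the active site. The 9 genes described here are MME, ECE1 and ECE2 of the neprilysin (M13) family, ERAP1, ERAP2, LNPEP, ANPEP and ENPEP of the M1 aminopeptidase family, and IDE of the M16 family. They were chosen by gene symbol among 14884 genes that have a named feature on the arrays, where a feature is the set of probes summarised for a transcript. Of the 9, 7 had a named feature, and each of these had 1, so no choice between features of a gene was needed. LNPEP and ECE2 matched no feature by symbol and were not analysed here. MME was put on the list because its difference was already known to be among the largest of the series, so its values are given as a description with no test. The other genes were chosen as its relatives, with earlier results of these data known.

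SW620 and SW480 are colorectal cancer cell lines, SW620 from a lymph node metastasis and SW480 from a primary tumour. Both were grown as spheres in medium without serum and with growth factors, a culture meant to enrich tumour-initiating cells, and 3 arrays were run for SW620 and 3 for SW480. The series describes the replicates as technical, and each group is a single cell line. The p-values therefore measure the spread between such arrays, which may be technical, and not the spread between cultures or tumours. In RNA taken from a whole culture, fewer cells that express a gene and less RNA per cell cannot be told apart.

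Neprilysin, also known as CD10, sits on the cell surface with its active site outside and degrades short signalling peptides such as substance P, enkephalins, natriuretic peptides and endothelins. ECE1 and ECE2 act at an earlier step, since they cut the inactive big endothelins into the active hormones. The M1 enzymes remove single amino acids from the start of a peptide. ANPEP (CD13) and ENPEP do so at the surface, ENPEP on angiotensin II, while ERAP1 and ERAP2 trim peptides in the endoplasmic reticulum to the length that fits MHC class I. IDE degrades insulin and amyloid beta, mainly in the cytosol.

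The deposited values are log2 expression levels from 1.99 to 13.9. The median of an array lay between 4.04 and 4.07, and the median feature over all arrays was at 4.065. Across features, Pearson's r was 0.988 to 0.992 within a line and 0.963 to 0.965 between the lines, and no array stood apart. The number of arrays limits the precision. Of 9 measured colorectal epithelial markers, 8 were brighter than the median feature in SW620 and 7 in SW480. Of the 9, 4 were higher in SW620, 1 was lower and 4 did not pass limma's test at an adjusted p of 0.05. Over all genes 35.6% passed it. CEACAM5, an adhesion molecule of colon epithelium, was 5.37-fold higher, VIL1, the villin of microvilli, 1.54-fold, and the epithelial keratins KRT19 and KRT8 were 1.42-fold and 1.32-fold higher. CDX2, a transcription factor of intestinal identity, was 2.90-fold lower.

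MME was bright in SW620 spheroids and dim in SW480 spheroids. Its level was 8.65, 8.74 and 8.89 in the SW620 arrays, against 4.17, 4.12 and 4.39 in the SW480 arrays (log2). The groups were far apart, with 4.26 log2 units between their nearest arrays. The difference was 4.53 (standard error 0.0997), a 23.2-fold higher level in SW620, and it was the fifth highest difference of all genes. Counting both directions, 8 genes differed by more than MME. In SW620 the MME feature was brighter than 95.7% of all features, and in SW480 it was brighter than 55.2%, close to the median feature. The fold is thus a ratio against a dim signal, for which no detection call was used here.

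The promoter table of RefSeq holds 4 windows for MME, each of 250 bases before to 50 bases after an annotated start. The first is printed because MME is the gene with the widest difference here. It lies at chr3:155079422-155079721 on the plus strand of GRCh38.p14, and the capitals mark the letters CCGCCC, the reverse complement of the GC box GGGCGG, in overlapping copies.
MME: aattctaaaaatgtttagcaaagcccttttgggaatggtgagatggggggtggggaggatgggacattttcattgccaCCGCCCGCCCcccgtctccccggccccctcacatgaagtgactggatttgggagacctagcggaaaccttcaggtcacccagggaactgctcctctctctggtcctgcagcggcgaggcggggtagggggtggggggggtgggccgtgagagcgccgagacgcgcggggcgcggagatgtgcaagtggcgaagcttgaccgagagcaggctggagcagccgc
A GC box on either strand occurs in 45.0% of the 35116 promoter windows of that table, so its presence does not set MME apart. None of the 4 windows holds the TATA box letters TATAAA on either strand, which 11.5% of all windows hold. The first window has 19 CG pairs, more than 57.1% of all windows.

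**Figure D1:**
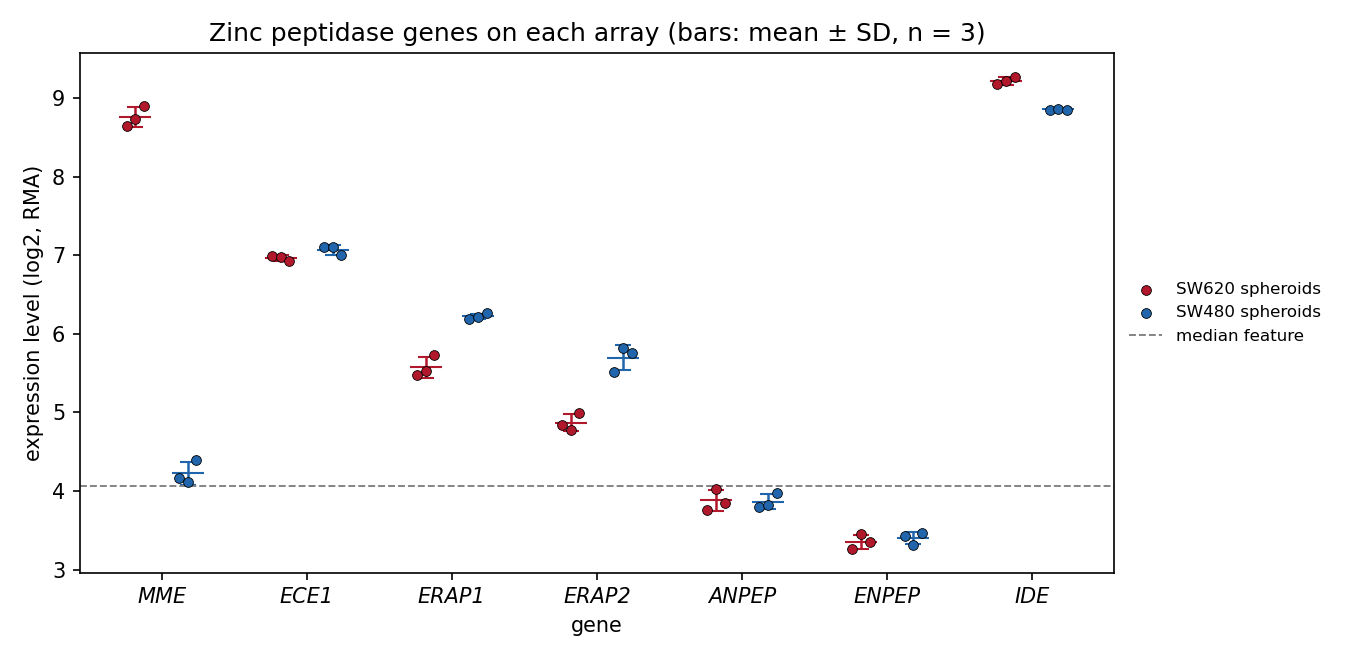
Expression level (log2, y axis) of the 7 measured genes on each array, with SW620 points (red) left of SW480 points (blue), horizontal bars for the mean and error bars for the SD of 3 arrays; the dashed line is the median feature. MME sits near 8.76 in SW620 and 4.23 in SW480, ERAP1 and ERAP2 are lower in SW620, IDE is higher in SW620, and ANPEP and ENPEP lie below the dashed line in both lines by their means.

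Some other cell types express MME, and their markers were measured beside it. Of 11 fibroblast and stromal markers 3 were measured, with a summed linear level of 260.5 to 301.5 in the SW620 arrays and 49.1 to 64.7 in the SW480 arrays. Most of the SW620 sum came from LUM, the matrix proteoglycan lumican, which was 9.34-fold higher in SW620 (7.95 ± 0.120 against 4.73 ± 0.390 in SW480, SD, n = 3 each). The other measured ones, DCN and THY1, differed by 0.18 and -0.0300 and did not pass the test (limma adjusted p = 0.110 and 0.861). Of 8 markers of B lymphoid precursors 3 were measured, with sums of 41.5 to 46.3 in SW620 and 48.3 to 51.0 in SW480, and PAX5, a B cell factor, was 1.47-fold lower in SW620. Of 11 neutrophil and other leukocyte markers 7 were measured, with sums of 725.9 to 735.3 in SW620 and 138.6 to 144.5 in SW480. LCP1, an actin-bundling protein of leukocytes that carcinoma lines can also express, made up most of the SW620 sum and was 25.1-fold higher in SW620. CD68, a lysosomal protein abundant in macrophages, was also brighter than the median feature in both lines and was 1.35-fold higher in SW620 (6.35 ± 0.0263 against 5.92 ± 0.0826 in SW480, SD, n = 3 each; limma adjusted p = 0.00112). The other leukocyte genes CD14, CSF3R, CXCR2, MPO and S100A8 had means below the median feature in both lines. RMA values have no 0. Each group is a culture of a single cell line, so the markers are given as genes measured in that line and not as counts of other cells. Whether their levels relate to that of MME was not tested.

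The genes whose profile over the 6 arrays lay closest to that of MME, by the Euclidean distance after each gene was centred on its own mean, were LCP1 (distance 0.268), PEG10 (0.295), RASGRF2 (0.355), LINC00460 (0.423) and CADPS2 (0.673). All 5 had differences near that of MME, from 4.18 for CADPS2, a protein of secretory vesicle priming, to 4.83 for the long non-coding RNA LINC00460. With 6 arrays in 2 lines, this nearness mostly restates the size of the difference between the lines.

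Apart from MME, 6 of the 9 genes were measured, and their differences ran from -0.82 for ERAP2 to 0.36 for IDE. In limma's moderated test with Benjamini-Hochberg adjustment over all 14884 genes, 1 of them was higher in SW620 at an adjusted p below 0.05, 2 were lower and 3 did not pass. Over all genes 35.6% passed, with 16% higher and 19.5% lower, and for a list this short the count of 3 in 6 is not read as a departure from that background. The arrays of the lines did not overlap for 4 of the 6, against 45.7% of all genes. None of the 6 differed by 2-fold or more, as 6.07% of all genes did with an adjusted p below 0.05.

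ECE1, the endothelin-converting enzyme, had similar levels in the lines and did not pass the test. It measured 6.99, 6.97 and 6.92 in SW620, against 7.10, 7.10 and 6.998 in SW480. Each SW620 array lay below each SW480 array, but the nearest ones were only 0.00666 apart. The difference was -0.10 (standard error 0.0811, 95% interval -0.28 to 0.0713, adjusted p = 0.364). The feature was brighter than 86.2% of features in SW620 and 87.0% in SW480.

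For ECE2, which makes endothelin at acid pH, the only related feature is annotated to the read-through transcript EEF1AKMT4-ECE2, whose signal cannot be assigned to ECE2 alone. Its level was 4.23, 4.15 and 4.36 in SW620, against 5.05, 4.79 and 4.76 in SW480, with no overlap. It was 1.54-fold lower in SW620 (-0.62, standard error 0.0999, adjusted p = 0.000267). The M13 list held 7 genes, of which 4 were measured. Of the 3 apart from MME, ECEL1 passed the test, while 35.6% of all genes did. ECEL1, a neuronal relative of the endothelin-converting enzymes, was 1.86-fold lower in SW620 (4.11, 4.20 and 4.09, against 5.10, 4.99 and 4.995 in SW480; difference -0.89, standard error 0.0826, adjusted p = 1.98e-06). MMEL1, the closest paralog of MME, averaged 4.43 ± 0.0562 in SW620 and 4.43 ± 0.0590 in SW480 (SD, n = 3 each), and its 95% interval was -0.18 to 0.18.

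**Figure D2:**
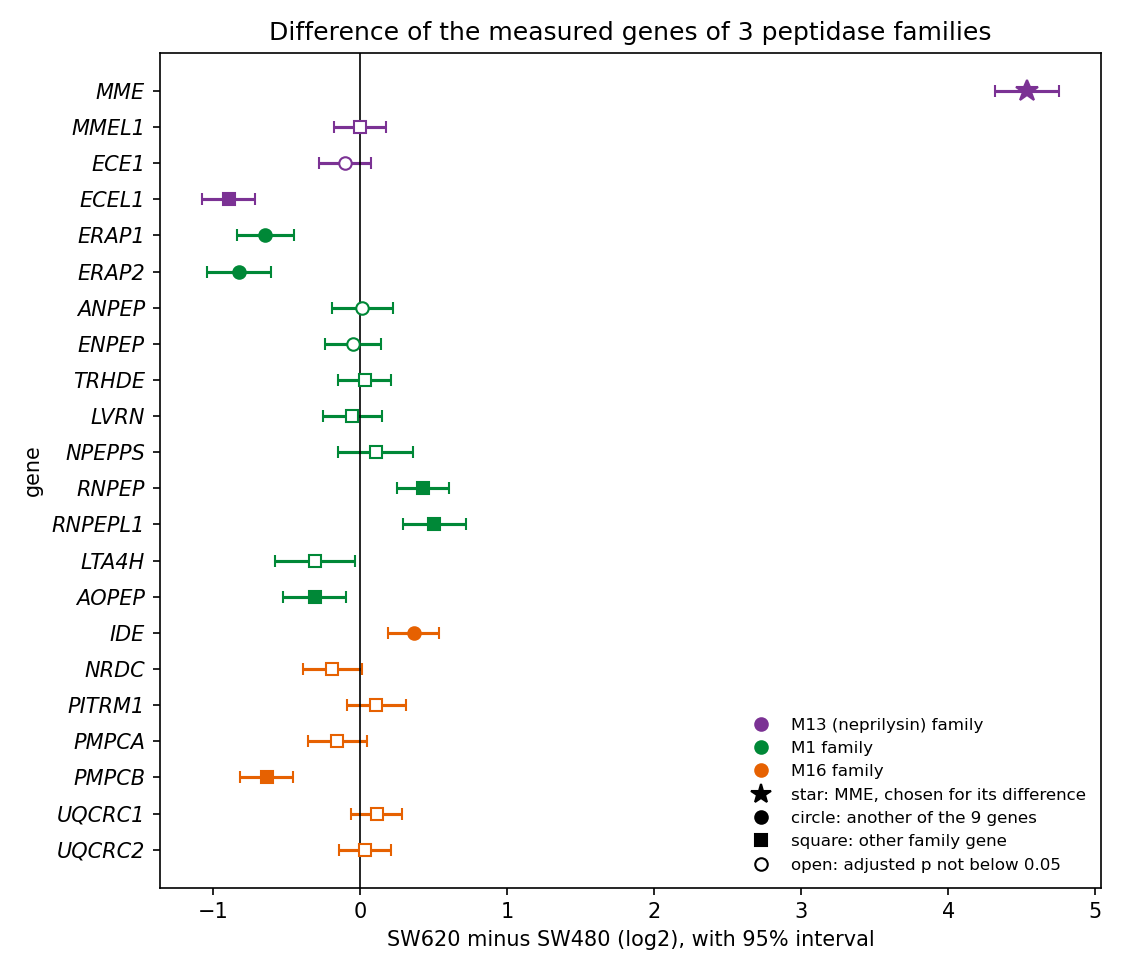
SW620 minus SW480 (log2, x axis) with 95% intervals for every measured gene of the M13, M1 and M16 families, in that order down the page; the star is MME, circles are the other genes of the 9, squares are further family genes, and open symbols did not pass an adjusted p of 0.05. MME lies at 4.53, and every other gene lies between -0.89 (ECEL1) and 0.50 (RNPEPL1).

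The 2 peptidases of the endoplasmic reticulum were both lower in SW620 spheroids. ERAP1 had 5.47, 5.53 and 5.73 in SW620, against 6.19, 6.21 and 6.26 in SW480. ERAP2 had 4.84, 4.78 and 4.99 in SW620, against 5.52, 5.82 and 5.75 in SW480. For neither gene did the lines overlap, and the nearest arrays were 0.46 apart for ERAP1 and 0.53 apart for ERAP2. ERAP1 was 1.56-fold lower in SW620 (-0.65, standard error 0.0899, adjusted p = 8.28e-05), and ERAP2 was 1.77-fold lower (-0.82, standard error 0.100, adjusted p = 2.45e-05). Whether one fell by more than the other was not tested.

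ERAP1 and ERAP2 lie side by side on chromosome 5 and are read from opposite strands. In the RefSeq table of GRCh38.p14, ERAP1 spans chr5:96760813-96935854 and ERAP2 spans chr5:96875984-96919716, so all 43733 bases of ERAP2 fall inside the annotated span of ERAP1. The promoter windows found for ERAP1, at chr5:96807896-96808195 and chr5:96814096-96814395 (minus strand), lie at lower positions than ERAP2. Transcripts from these starts run away from ERAP2, so the overlap comes from the outermost annotated end of ERAP1. The strand that the probes read is not given in the sources used here, and shared signal between these features was not tested. LNPEP starts 225 bases past the end of ERAP1.

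Because these neighbours moved the same way, the promoter windows that hold a shared stretch are printed. The motif searched on both strands was the letters GAAA, any 2 bases and GAAA again, the core of the element bound by interferon regulatory factors, and ERAP1 and ERAP2 are known to respond to interferon. The ERAP1 window lies at chr5:96807896-96808195 (minus strand) and the ERAP2 window, the second of its 2, at chr5:96876250-96876549 (plus strand), both in GRCh38.p14. The capitals mark the match, which in ERAP1 reads as the reverse complement.
ERAP1: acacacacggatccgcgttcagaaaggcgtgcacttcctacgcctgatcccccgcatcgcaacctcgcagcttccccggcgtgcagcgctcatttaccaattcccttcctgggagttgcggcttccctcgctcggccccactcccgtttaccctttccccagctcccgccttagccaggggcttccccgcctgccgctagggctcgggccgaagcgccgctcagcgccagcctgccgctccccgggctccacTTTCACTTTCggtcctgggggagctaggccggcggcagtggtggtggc
ERAP2: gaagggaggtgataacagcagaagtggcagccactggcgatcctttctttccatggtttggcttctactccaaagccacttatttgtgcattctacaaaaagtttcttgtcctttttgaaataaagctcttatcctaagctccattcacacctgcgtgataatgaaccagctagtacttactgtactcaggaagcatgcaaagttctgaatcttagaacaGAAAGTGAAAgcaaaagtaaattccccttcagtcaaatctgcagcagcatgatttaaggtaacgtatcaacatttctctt
Turned to the same direction, both genes carry the identical letters, shown here with 8 bases on each side.
ERAP1 element: ccaggaccGAAAGTGAAAgtggagcc
ERAP2 element: ttagaacaGAAAGTGAAAgcaaaagt
The match begins 30 bases before the annotated start in ERAP2 and at base 3 after it in ERAP1. Of the 20 windows found for 8 of the 9 genes, these 2 were the only ones with a match, and 3.57% of all windows of the table have one. The motif was chosen for what is known of ERAP1 and ERAP2, so that contrast with the other genes is not read as a result. A match describes letters and is not a binding site. Of 418 measured genes with this motif in a window, 20.3% were lower and 14.6% higher in SW620, against 21.1% and 17.4% of the 10749 measured genes that have any window.

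ERAP1 and ERAP2 belong to the machinery that cuts and loads peptides for MHC class I. Of 30 genes listed for it 12 were measured. Of these 2 were higher, 3 were lower and 7 did not pass, while over all genes 35.6% passed. Their median difference was -0.14 (0.0132 over all genes). The other gene that was lower was CANX, the chaperone calnexin, at 1.23-fold (adjusted p = 0.00967). The cytosolic TPP2, which trims long peptides, was 1.61-fold higher in SW620 (9.64 ± 0.119 against 8.95 ± 0.0366 in SW480, SD, n = 3 each; adjusted p = 3.87e-05). THOP1, which destroys peptides in the cytosol, was 1.19-fold higher (adjusted p = 0.0306); it was picked for mention once its value was known. TPP2 alone was higher in this list without SW480 replicate 1, SW480 replicate 3, SW620 replicate 1 or SW620 replicate 2. B2M, the light chain of MHC class I, and IRF1, an interferon regulatory factor, did not pass (differences 0.18 and 0.0243, adjusted p = 0.150 and 0.905). IRF2, the other such factor listed, did not pass either (-0.20, adjusted p = 0.0886), though its arrays did not overlap between the lines.

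The surface aminopeptidases ANPEP and ENPEP were dim in both lines, and neither passed the test. ANPEP measured 3.77, 4.03 and 3.84 in SW620, against 3.79, 3.83 and 3.97 in SW480, and the lines overlapped. The 95% interval of its difference, 0.0147, was -0.19 to 0.22 (adjusted p = 0.929). ENPEP measured 3.27, 3.45 and 3.35 in SW620, against 3.42, 3.32 and 3.47 in SW480, again with overlap (difference -0.0505, interval -0.24 to 0.14, adjusted p = 0.711). In SW620 ANPEP was brighter than 43.1% of features and ENPEP than 14.7%, and in SW480 the shares were 43.1% and 19.3%.

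In the wider M1 list of 13 genes, 11 were measured, of which 2 were higher, 3 were lower and 6 did not pass (median difference -0.0505). Over all genes 16% were higher and 19.5% lower. RNPEP, aminopeptidase B, which removes basic residues, was 1.35-fold higher in SW620 (6.99 ± 0.0463 against 6.56 ± 0.0568 in SW480; adjusted p = 0.000974), and its relative RNPEPL1 was 1.42-fold higher (adjusted p = 0.00131). AOPEP, picked for mention once its value was known, was 1.24-fold lower (-0.31, adjusted p = 0.0267). That call is lost without SW480 replicate 2 (adjusted p = 0.127), SW480 replicate 3 (0.079), SW620 replicate 1 (0.0857) or SW620 replicate 2 (0.0599).

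IDE was the other gene of the 9 that was higher in SW620, by a small margin and at a bright level. It had 9.17, 9.21 and 9.27 in SW620, against 8.84, 8.86 and 8.85 in SW480. The lines did not overlap, and the SW480 arrays lay within an SD of 0.00997. The difference was 0.36 (standard error 0.0795, 1.29-fold, adjusted p = 0.00276), and 25.9% of all genes had a larger difference in either direction. IDE was brighter than 97.0% of features in SW620 and 96.1% in SW480. All 7 genes of the M16 list were measured, and 2 of them passed, against 35.6% of all genes. Besides IDE, PMPCB passed, a subunit of the mitochondrial processing peptidase, at 1.55-fold lower in SW620 (9.24 ± 0.0731 against 9.88 ± 0.0308 in SW480; adjusted p = 4.18e-05), and 5 did not pass.

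Neighbouring genes on the chromosomes were set beside the members. The 3 nearest measured protein-coding genes on each side of MME, whose starts lie 689 to 1650 kb away, had differences from -1.35 to 0.19, and none was higher at the threshold, 2 were lower and 4 did not pass. ARHGEF26, the third on its side and picked once its value was known, was 2.56-fold lower in SW620 (3.84 ± 0.0645 against 5.19 ± 0.164 in SW480, SD, n = 3 each; limma adjusted p = 1.71e-07). GMPS, an enzyme of guanine synthesis, was lower by a difference of -0.26 (adjusted p = 0.0208), a call lost without SW480 replicate 1 (adjusted p = 0.0594), SW480 replicate 2 (0.0552) or SW620 replicate 1 (0.0714). Around ERAP1, besides ERAP2, the glutaredoxin GLRX (-0.43) was lower, as was RHOBTB3 (-0.47), the third on that side and picked once its value was known. The starts of GLRX and RHOBTB3 lie 947 and 1040 kb from that of ERAP1. CAST did not pass (0.00865, adjusted p = 0.953), and LIX1 was higher (0.37). CAST and LIX1 are the nearest measured genes on either side of the ERAP1 and ERAP2 pair. Around IDE 2 of 6 neighbours were higher, and those on either side, MARCHF5 and KIF11, differed by 0.0799 and 0.0709 and did not pass. Of the 6 neighbours of each other gene, 1 was higher around ECE1, 3 were higher and 1 lower around ANPEP, and 3 were lower around ENPEP. The starts of those 3 lie 1670 to 1800 kb from that of ENPEP. Over all genes 16% were higher and 19.5% lower.

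**Figure D3:**
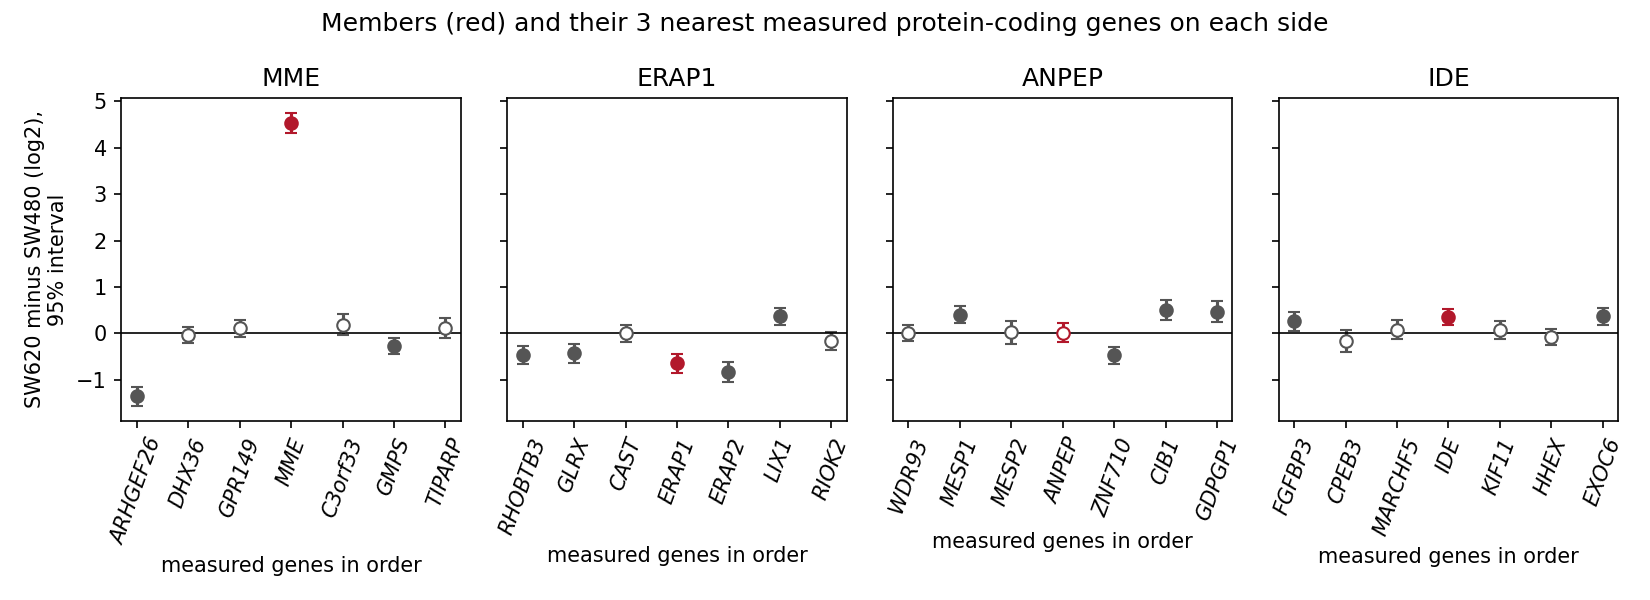
SW620 minus SW480 (log2, y axis) with 95% intervals for MME, ERAP1, ANPEP and IDE (red) and the 3 nearest measured protein-coding genes on each side (grey) in chromosomal order; open symbols did not pass an adjusted p of 0.05. MME stands at 4.53 among neighbours from -1.35 to 0.19, whereas ERAP1 and ERAP2 are low side by side.

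Peptides that these enzymes make or destroy were examined through their precursor genes. The clearest changes were in the genes of endothelins, which ECE1 makes from big endothelins and neprilysin degrades. EDN1, the precursor of endothelin-1, had 5.26, 5.43 and 5.16 in SW620, against 3.47, 3.48 and 3.43 in SW480. EDN3, the precursor of endothelin-3, ran the other way, with 4.33, 4.35 and 4.41 in SW620, against 6.23, 6.08 and 6.24 in SW480. Neither overlapped between the lines. EDN1 was 3.54-fold higher in SW620 (1.82, standard error 0.0900, adjusted p = 4.54e-09), and EDN3 was 3.52-fold lower (-1.82, standard error 0.0847, adjusted p = 2.75e-09). EDN1 in SW480 was brighter than 22.5% of features only, so its fold is a ratio against a dim signal. EDN2 differed by -0.17 and did not pass (adjusted p = 0.205), but passed without SW620 replicate 1 (-0.28, adjusted p = 0.0425).

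Of 34 precursor genes 28 were measured, and 3 were higher, 3 lower and 22 did not pass, with a median difference of 0.0595. Of the 28, 12 were brighter than the median feature in SW620 and 10 in SW480, and over all genes 35.6% passed. ADM, the vasodilator adrenomedullin, was 1.47-fold lower in SW620 (adjusted p = 0.000974). The tachykinin TAC3 was 1.23-fold higher (adjusted p = 0.0124, and 0.0545 without SW480 replicate 2), and its means lay below the median feature in both lines. GAL and CALCB, picked once their values were known, were 1.22-fold higher and 1.21-fold lower. The CALCB call is lost without SW480 replicate 1 (adjusted p = 0.145), SW480 replicate 3 (0.127), SW620 replicate 2 (0.112) or SW620 replicate 3 (0.0882). APP, the source of amyloid beta that neprilysin and IDE degrade, was bright and did not pass (8.93 ± 0.0289 in SW620 and 8.99 ± 0.0377 in SW480, SD, n = 3 each; adjusted p = 0.597).

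**Figure D4:**
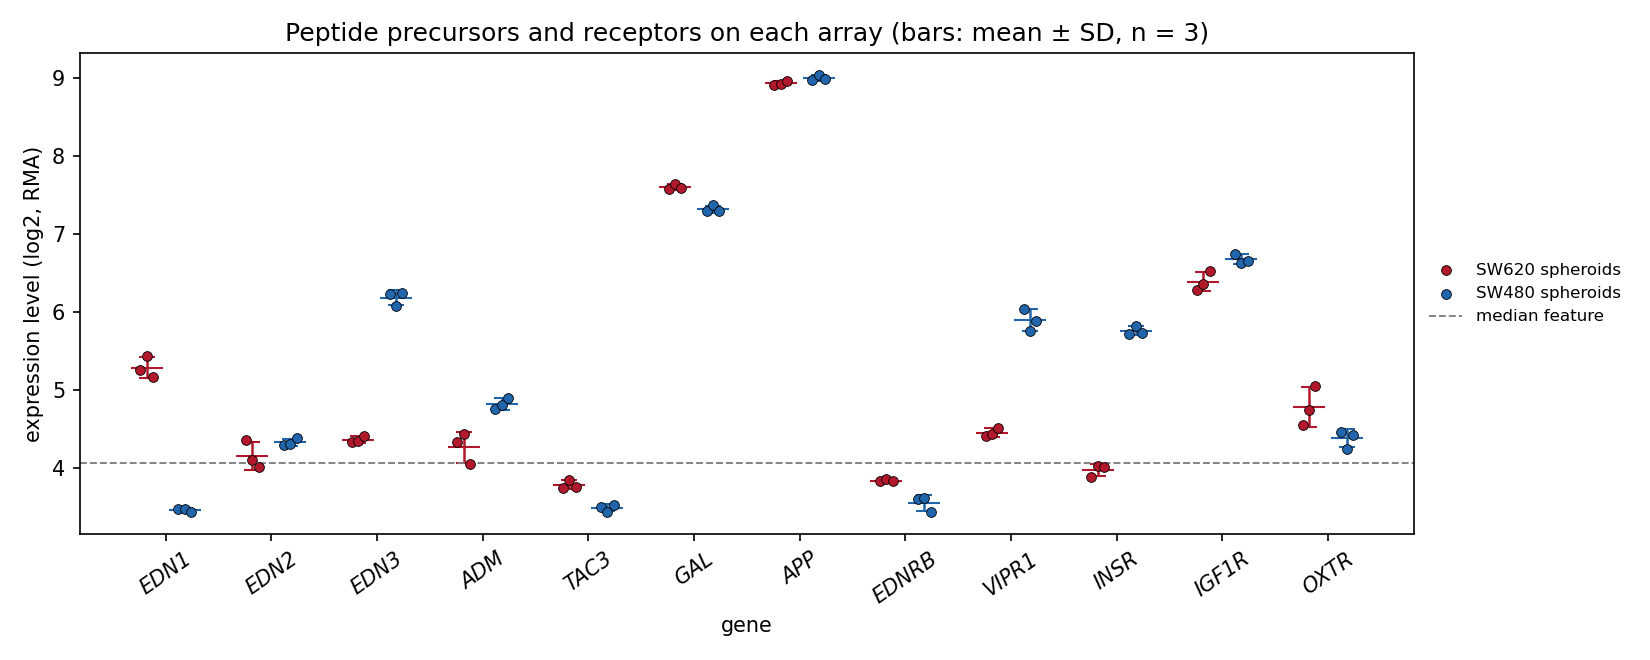
Expression level (log2, y axis) on each array of peptide precursors and receptors, with SW620 points (red) left of SW480 points (blue), bars for mean and SD of 3 arrays, and the median feature as a dashed line. EDN1 is high in SW620 and EDN3 in SW480, INSR and VIPR1 are lower in SW620, and APP is nearly level.

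Among 42 receptors of such peptides 32 were measured, of which 2 were higher, 3 were lower and 27 did not pass (median difference 0.0167). Over all genes 35.6% passed. Only 8 of the 32 were brighter than the median feature in SW620 and 8 in SW480, so most of them were dim. INSR, the receptor of the IDE substrate insulin, had 3.88, 4.03 and 4.01 in SW620, against 5.72, 5.83 and 5.73 in SW480, and was 3.45-fold lower (-1.79, standard error 0.0842, adjusted p = 3.07e-09). VIPR1, a receptor of vasoactive intestinal peptide, was 2.72-fold lower (4.45 ± 0.0580 in SW620 and 5.90 ± 0.143 in SW480; adjusted p = 5.97e-08). Of these 5 calls the 3 smaller ones were each lost when any of 2 to 4 arrays was left out. IGF1R, the receptor of insulin-like growth factor, was 1.22-fold lower (adjusted p = 0.0251), which is lost without SW480 replicate 1 (0.0869), SW480 replicate 3 (0.0534), SW620 replicate 1 (0.0995) or SW620 replicate 2 (0.0707), with differences from -0.36 to -0.23 as arrays were left out. The oxytocin receptor OXTR was 1.32-fold higher (adjusted p = 0.0185), which is lost without SW480 replicate 2 (0.0794) or SW620 replicate 3 (0.071), with differences from 0.27 to 0.51. EDNRB, an endothelin receptor picked once its value was known, was dim and 1.22-fold higher (3.84 ± 0.0167 in SW620 and 3.55 ± 0.101 in SW480; adjusted p = 0.0181). Its call is lost without SW480 replicate 3 (0.0861) or SW620 replicate 2 (0.0514), with differences from 0.23 to 0.32.

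Other peptidases of hormones and short peptides were listed as enzymes of like task. MME was chosen for its large difference, so how it stands beside them was fixed in advance and is not read as a result. Of 41 such genes 31 were measured, and 5 were higher, 9 were lower and 17 did not pass (median difference -0.0535). Over all genes 16% were higher and 19.5% lower. DPP7, a dipeptidyl peptidase of vesicles, was 2.23-fold lower in SW620 (6.05 ± 0.137 against 7.20 ± 0.106 in SW480; adjusted p = 7.59e-07). DPP4, the surface enzyme CD26 that inactivates incretins, was 1.80-fold lower (3.88 ± 0.207 in SW620 and 4.73 ± 0.238 in SW480; adjusted p = 0.000173). METAP1, which removes the first methionine of new proteins, was 1.66-fold lower, and the cytosolic DPP3 was 1.64-fold higher (adjusted p = 2.53e-05 and 2.64e-05). Of the 31 genes only DPP7 both passed and differed by at least 2-fold, as 6.07% of all genes did, and DPP7 was lower in SW620.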

How the data were processed

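The authors deposited log2 expression values, 1 per feature and array. The submitters' processing notes name Partek and RMA, without versions. Log base 2 was inferred from the values' range, since no source states it. RMA's background step can understate folds of dim genes. Of 53616 features, 16098 had exactly 1 gene symbol in the platform annotation, all matched to RefSeq (GRCh38.p14), and 37518 were unnamed here. The feature with the highest mean stood for a gene (14884 genes). Differences, SW620 minus SW480, came from a two-sided test of limma 3.58.1 (R 4.3.3; lmFit and eBayes without covariates, 8.39 prior degrees of freedom), Benjamini-Hochberg adjusted over all genes, with a threshold of 0.05. The fit was checked on simulated data.

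The members and lists were chosen with earlier results of these data known. Named were all 9 members, changed cell type markers and the 5 profiles closest to MME. From each list came up to 4 genes that passed with the largest difference and arrays that did not overlap. Neighbours up to 2 per side were named where they passed around MME, ERAP1 or ERAP2. Those of ECE1, ANPEP and ENPEP were only counted in the text. Other genes are marked as picked once their values were known or are given as context. Same-numbered arrays of the lines did not deviate together (correlations -0.0234 to -0.00889). Alternatives covered scaling, filters, variance model, features, thresholds and single arrays.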

Additional observations from a re-analysis of the deposited data

How the results depend on the processing

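MME was chosen for its difference, so it is left out of the count that follows. Over all genes 35.6% passed in the main setting. Across 18 alternative settings the same 3 of the other 6 measured genes passed, IDE higher and ERAP1 and ERAP2 lower. The exception was the demand for at least a 2-fold difference as well, which none of the 6 met. That demand left 904 of the 5293 genes called over all genes. Other settings gave 3930 to 5536 calls, and leaving out an array in turn gave 4590 to 4984. The difference of MME ran from 4.47 to 4.61, that of ERAP1 from -0.72 to -0.59, that of ERAP2 from -0.91 to -0.76 and that of IDE from 0.31 to 0.39. ECE1 passed under none of them (adjusted p 0.268 to 0.570). ANPEP changed sign with a repeat quantile normalization (-0.00353) and with cyclic loess (-0.00896), and ran from -0.0605 to 0.0721 as arrays were left out. MMEL1 changed sign with quantile normalization (0.0119) and with centring on the 75th percentile (0.0264), and ran from -0.0347 to 0.0239 as arrays were left out; neither gene passed under any setting. CALCB lost its call with centring on the 75th percentile (adjusted p = 0.0722). The labels give both lines replicate numbers 1 to 3 without saying that a number marks a shared culture. With a replicate block 5215 genes passed, and among them were the same 3 of the 6 genes. Dim signal limits the lower side of MME and EDN1. The same holds for other folds given here whose dimmer side lay below the median feature at 4.065. Among them are INSR (3.97), LRP2 (3.30), DPP4 (3.88) and ARHGEF26 (3.84) in SW620, and CEACAM5 (3.93) in SW480.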

Other observations

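LNPEP, which was not analysed here, is known as a cargo of the vesicles that store the glucose transporter GLUT4. Of 14 genes listed for these vesicles 4 were measured. VAMP3, a vesicle fusion protein, was 1.47-fold lower in SW620 spheroids (8.17 ± 0.0967 in SW620 and 8.73 ± 0.109 in SW480, SD, n = 3 each; limma adjusted p = 0.000300), and the other 3 did not pass. The list's count was 2 without SW480 replicate 3 and without SW620 replicate 3. It was also 2, of 3 tested, when only genes brighter than the median feature were tested. In the main setting 35.6% of all genes passed.

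MME and ANPEP are also enzymes of the kidney and intestinal brush border, and of 9 markers of that structure 5 were measured. LRP2, the endocytic receptor megalin, was 3.01-fold lower in SW620 (3.30 ± 0.110 in SW620 and 4.89 ± 0.0309 in SW480; adjusted p = 1.17e-08). The other 4 did not pass, while 35.6% of all genes passed. The means of SI, CUBN and LCT lay below the median feature in both lines. VIL1, the actin-binding protein villin of microvilli, is not among these 9 and comes from the epithelial markers above. It was 1.54-fold higher in SW620 (9.38 ± 0.132 in SW620 and 8.76 ± 0.0495 in SW480; adjusted p = 0.000121).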
